A study of Mus musculus with 20 samples.

Results

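The data described here are the places where trimethylation of lysine 4 of histone H3 (H3K4me3) was called enriched in Comma-Dβ cells, an established line of mouse mammary epithelial cells. They were measured by chromatin immunoprecipitation and sequencing. Every region of the deposited H3K4me3 list on the autosomes was taken, which gave 16562 of the 17162 regions of the whole list. The series holds 20 samples, 4 for each of HEB, H3K4me3, H3K27ac, H3K27me3 and input. All 5 groups came from the same untreated line at passage 28, so they stand for 1 line in culture and not for the mammary gland. Growth factors in the medium, shared by all groups, were epidermal growth factor at 5 ng/mL, insulin at 0.125 IU/mL and 2% serum. There is 1 list for the 4 H3K4me3 samples and the input samples have no list of their own. No value below therefore has a replicate error, sequencing depth is unknown, and all 95% intervals (Wilson) cover counting error only.

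As background, H3K4me3 is laid down around the starts of genes by the SET1 and MLL (KMT2) methyltransferase complexes. A subunit of the SET1 complexes, Cxxc1, and several of the KMT2 enzymes carry CXXC domains that bind unmethylated CpG dinucleotides, and the TFIID subunit Taf3 reads the mark. Starts rich in CpG commonly carry H3K4me3, while starts poor in CpG carry it mostly in the cells that use them. At starts held silent by Polycomb complexes H3K27me3 is found, and starts that carry both H3K4me3 and H3K27me3 are called bivalent. H3K27ac accompanies active promoters and enhancers.

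A gene was counted as marked when a peak lay within 1 kb of any of its starts listed by RefSeq (GRCm38.p6, the assembly behind mm10). The promoters printed in this paragraph, 300 bases from 250 before to 50 after the start, were chosen to show the sequence features that go with the presence and absence of the mark, and CpG dinucleotides are in capitals. Psmd13, a subunit of the proteasome lid, stands for promoters shared with a neighbour, because the start of the mitochondrial deacetylase gene Sirt3 lies 85 bp before its own on the opposite strand. It lies at chr7:140882144-140882443 (plus strand) under a 2490 bp peak of 32.2-fold. The ribosomal protein gene Rpl5 (chr5:107900278-107900577, plus) had the highest fold of the list, 75.3, in a peak of 2679 bp. H3K27me3 was listed at the Rpl5 start as well, though no H3K27me3 peak overlapped that H3K4me3 peak. Lamb3, a chain of the basement membrane protein laminin 332 (chr1:193301744-193302043, plus), was marked with only 2 CpG in the window, by a 1064 bp peak of 6.41-fold. Six2, a kidney progenitor regulator (chr17:85688205-85688504, minus), was unmarked with 37 CpG and had H3K27me3 at its start. Csn2, the beta-casein gene of milk (chr5:87699376-87699675, minus), and the olfactory receptor gene Olfr16 (chr1:172956518-172956817, plus) were unmarked with 2 CpG each.
Psmd13: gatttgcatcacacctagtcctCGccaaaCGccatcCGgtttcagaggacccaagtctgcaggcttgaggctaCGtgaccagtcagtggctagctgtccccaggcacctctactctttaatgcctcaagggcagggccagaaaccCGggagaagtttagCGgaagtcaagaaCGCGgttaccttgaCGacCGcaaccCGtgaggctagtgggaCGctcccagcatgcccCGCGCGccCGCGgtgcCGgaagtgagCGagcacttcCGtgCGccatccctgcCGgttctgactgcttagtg
Rpl5: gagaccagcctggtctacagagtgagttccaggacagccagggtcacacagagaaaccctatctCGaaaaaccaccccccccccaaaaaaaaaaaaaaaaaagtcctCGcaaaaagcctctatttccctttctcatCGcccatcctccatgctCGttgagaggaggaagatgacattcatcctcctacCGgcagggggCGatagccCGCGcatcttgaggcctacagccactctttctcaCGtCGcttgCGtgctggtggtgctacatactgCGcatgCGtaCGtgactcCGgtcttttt
Lamb3: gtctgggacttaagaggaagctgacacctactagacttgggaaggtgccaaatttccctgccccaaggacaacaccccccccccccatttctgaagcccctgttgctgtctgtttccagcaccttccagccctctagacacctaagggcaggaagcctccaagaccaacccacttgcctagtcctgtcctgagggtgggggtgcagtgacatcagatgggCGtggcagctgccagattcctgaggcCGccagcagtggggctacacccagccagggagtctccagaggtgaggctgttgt
Six2: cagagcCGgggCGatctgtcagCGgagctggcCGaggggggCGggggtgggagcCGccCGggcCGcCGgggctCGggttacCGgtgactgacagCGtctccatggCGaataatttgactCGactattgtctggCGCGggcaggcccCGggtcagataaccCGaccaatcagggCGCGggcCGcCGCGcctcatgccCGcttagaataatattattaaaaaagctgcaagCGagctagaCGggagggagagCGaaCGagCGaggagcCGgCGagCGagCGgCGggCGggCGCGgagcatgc
Csn2: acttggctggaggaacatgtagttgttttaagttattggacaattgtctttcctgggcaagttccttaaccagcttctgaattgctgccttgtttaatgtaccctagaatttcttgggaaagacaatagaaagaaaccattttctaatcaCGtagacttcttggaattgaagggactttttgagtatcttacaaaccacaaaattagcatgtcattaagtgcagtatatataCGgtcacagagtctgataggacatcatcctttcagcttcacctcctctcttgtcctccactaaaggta
Olfr16: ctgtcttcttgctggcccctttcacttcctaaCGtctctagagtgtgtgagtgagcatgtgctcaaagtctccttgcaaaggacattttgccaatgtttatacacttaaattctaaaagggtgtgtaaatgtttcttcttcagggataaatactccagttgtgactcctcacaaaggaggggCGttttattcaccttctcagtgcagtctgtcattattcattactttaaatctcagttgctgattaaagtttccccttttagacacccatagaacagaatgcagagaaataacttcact
The ratio of observed to expected CpG was 0.80 for Psmd13, 0.74 for Rpl5 and 1.13 for Six2, against 0.08 for Lamb3, 0.18 for Csn2 and 0.17 for Olfr16. By this measure the unmarked Six2 promoter resembles the first 2 and the marked Lamb3 promoter the last 2.

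Peak widths ran from 206 to 24358 bp with a median of 1741 bp (quartiles 878 and 2579), and together they covered 31.7 Mb. The deposited fold over control, the authors' own value for each peak, for which the labels do not say which library served as control, ran from 1.18 to 75.3 with a median of 13.3 (quartiles 3.79 and 23.4). Wider peaks tended to have a higher fold (Pearson's r = 0.54, Spearman's rho = 0.74 across 16562 peaks, which come from the same libraries and are not independent). Peaks of 5 kb or more numbered 428, or 2.58% of all.

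Most peaks lay at the starts of genes, and those elsewhere were narrower and weaker. Within 1 kb of a listed start of a coding gene lay 9128 peaks (55.1%, 95% interval 54.4 to 55.9), with a median width of 2169 bp and a median fold of 19.6. A further 2057 (12.4%) lay within 1 kb of either end of a coding gene that has no listed start, with medians of 2074 bp and 18-fold. The 962 peaks (5.81%) at noncoding genes had a median of 1092 bp and 5.32-fold. Inside genes, away from these points, lay 2615 peaks (15.8%) with a median of 714 bp and 2.89-fold. Between genes lay 1800 (10.9%) with a median of 558 bp and 2.73-fold. Peaks under 1 kb made up 8.87% at coding starts, 65.7% inside genes and 80.9% between genes. A peak of H3K27ac overlapped 86.1% of the peaks at coding starts and 67.6% of those between genes, and H3K27me3 overlapped 13.9% and 12.5%. The share between genes was 7.90% when peaks with a −log10 q under 5 were left out.

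**Figure D1:**
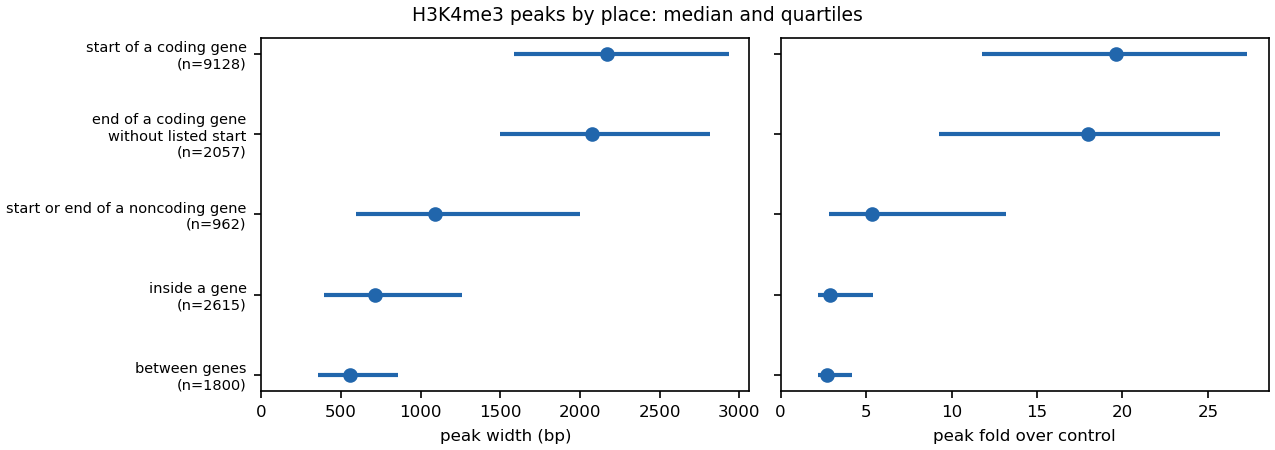
Width in bp (left) and fold over control (right) of autosomal H3K4me3 peaks by where they lie. Points are medians and bars run from the lower to the upper quartile. The median width falls from 2169 bp at coding starts to 558 bp between genes and the median fold from 19.6 to 2.73.

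Of the 10 widest peaks 9 lay at a gene. The widest, 24.4 kb on chromosome 15 (85663310 to 85687667), had no gene within 1 kb. The others lay at Gata3 (21.7 kb), the luminal mammary regulator, at Brinp3 (16.6 kb), at the AP-2 factor genes Tfap2a (16.0 kb) and Tfap2b (13.4 kb), at Zfp503 (14.1 kb), Tnrc18 (13.7 kb), the homeobox gene Irx2 (13.0 kb) and Tsc22d2 (13.0 kb), and at the noncoding RNA gene Neat1 (12.8 kb), which builds nuclear paraspeckles. All 10 overlapped H3K27ac and none overlapped H3K27me3. The 10 peaks with the highest fold were much narrower, 1.5 to 4.5 kb, and 4 of them lay at ribosomal protein genes: Rpl5 (75.3-fold), Rpl26 (71.6), Rpl9 with the lipoic acid synthase gene Lias (67.8) and Rpl27 (63.7). The others lay at Trmt44 (73.8), the dynein subunit gene Dync1i2 (69.8), Mob1b (66.1), Ociad1 (65.4), Wdr70 (64.0), and Mau2 with Sugp1 (63.9). The 2 sets shared no peak. The highest −log10 q, 7056.3, belonged to a peak of 1.72-fold between genes on chromosome 2 (98666280 to 98667514), so a rank by q and a rank by fold differ. That peak overlapped both H3K27ac and H3K27me3. Whether it reflects H3K4me3 or an artefact was not tested.

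H3K4me3 was present at 9760 of the 16457 autosomal coding genes with a listed start, 59.3% (58.6 to 60.1), and absent from 6697. The other 4208 coding genes, among them all of chromosome 18, have no listed start in the table used, and for these a peak within 1 kb of either gene end was counted, which found 2357 (56.0%, 54.5 to 57.5). Over both kinds, 12117 of 20665 genes (58.6%) were marked, and 58.2% of the 20085 listed starts. For genes with a listed start, the ends of the gene would have marked 328 genes without a mark at the start and missed 605 with one. Among marked genes 97.1% had a single peak at their starts. The median peak was 2271 bp wide (quartiles 1667 and 3050) with a fold of 20.5 (12.8 and 28.4). Of the unmarked genes 541 (8.08%) had a peak inside the gene. Of 1220 genes with listed starts more than 2 kb apart, 253 were marked at all of their groups of starts, 649 at some and 318 at none, and in 467 of the 649 (72.0%, 68.4 to 75.3) the most upstream group was among the marked ones. Chromosome 12 had the largest share of marked genes by listed start, 68.4% (64.5 to 72.0), and chromosome 7 the smallest, 45.2% (42.9 to 47.6).

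At a gene that had a peak to itself, the mark lay mainly over the transcribed side. In 5976 genes with 1 listed start inside such a peak, the peak reached a median of 641 bp upstream (quartiles 435 and 924) and 1418 bp downstream (1066 and 1963). It reached farther downstream than upstream in 5447 of them (91.1%, 90.4 to 91.8).

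The width and fold of a peak differed with the other marks at the same start. Of the 9760 marked genes, 7979 (81.8%) had H3K27ac and no H3K27me3 within 1 kb of a start, with a median width of 2448 bp and a median fold of 22.8. Both other marks were listed at 536 genes (5.49%), with medians of 2066 bp and 12.4-fold. H3K27me3 without H3K27ac, the bivalent pattern, was found at 894 (9.16%), with medians of 1043 bp and 4.68-fold. The upper quartile of width in these, 1442 bp, lay below the lower quartile of the H3K27ac genes, 1870 bp. Neither mark was listed at 351 genes (3.6%), with medians of 1190 bp and 8.09-fold. Among the 6697 genes without H3K4me3, 2947 (44.0%) had H3K27me3 only, 3319 (49.6%) neither mark, 380 (5.67%) H3K27ac only and 51 both. HEB sites lay within 1 kb of a start of 47 marked and 9 unmarked genes. Each list was made from many cells, so 2 marks at a start need not lie on the same chromosome copy or in the same cell.

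The labelled cell type was checked against marker genes. All 18 pan-epithelial markers were marked, where 58.6% of all coding genes were, among them the adhesion genes Cdh1 (2.61 kb, 18-fold) and Epcam (3.06 kb, 9.99-fold), the splicing regulator Esrp1 (4.58 kb, 13.8-fold) and the factor Grhl2 (3.61 kb, 12.3-fold). H3K27ac lay at all 18 and H3K27me3 at 14 of them, Cdh1, Epcam, Esrp1 and Grhl2 included, where 28.4% of all coding genes had H3K27me3 and 54.3% had H3K27ac. Of 16 basal markers 13 were marked (81.2%, 57.0 to 93.4, an interval that held the share of all genes), including the keratin genes Krt14 (3.13 kb, 16.2-fold) and Krt5 (2.89 kb, 6.65-fold) and the smooth muscle actin gene Acta2 (2.38 kb, 6.54-fold). The 3 without a mark were the contractile genes Myh11 and Cnn1 and the basal regulator Trp63. Trp63 and Myh11 have no listed start, and inside Trp63 lay a peak of 3.21 kb and 4.31-fold. Of 15 luminal markers 13 were marked (86.7%, 62.1 to 96.3), including Krt8 (1.69 kb, 5.45-fold), Krt18 (1.26 kb, 19.7-fold), the alveolar regulator Elf5 (1.12 kb, 2.30-fold) and the oestrogen receptor gene Esr1 (1.81 kb, 9.05-fold). Krt19 and Ly6d, called by gene ends, were not. H3K27me3 lay at 6 of the 16 basal markers, Krt5 among them, and at 8 of the 15 luminal ones. At several of these genes the peak lay just beside the start. The distance was 91 bp at Elf5, 95 bp at the hemidesmosome collagen gene Col17a1 and 56 bp at the receptor gene Kit. With the start itself required inside a peak, 9 of the 16 basal and 8 of the 15 luminal markers remained. By that rule 56.4% of all coding genes with a listed start were marked, so both lists then lay near the share of all genes.

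Milk genes and markers of most other cell types were marked less often than the 58.6% of all coding genes, while the intervals of the fibroblast and adipocyte lists held that share. Of 11 milk protein genes 3 were marked: Mfge8 (2.21 kb, 13.8-fold), which encodes the milk fat globule protein, Btn1a1 (3.38 kb, 8.71-fold), and Csn3, by a 0.581 kb peak of 2.00-fold near a gene end. The casein genes Csn1s1 and Csn2 lay 260.2 and 227.0 kb from any peak. Fibroblast markers were marked at 8 of 12 genes, among them the collagen genes Col1a1 (3.35 kb, 11.7-fold), Col1a2 (6.71 kb, 4.29-fold) and Col3a1 (3.73 kb, 6.77-fold) and the receptor gene Pdgfrb (3.70 kb, 17.1-fold). Dpt, Lum, Fap and Thy1 were unmarked. Whether the marks at fibroblast genes lay in epithelial or in other cells of the culture was not tested. Endothelial markers were marked at 2 of 12 genes, the VEGF receptor genes Kdr and Flt1, and both also had H3K27me3. Leukocyte markers were marked at 3 of 18, Cd14 (2.24 kb, 17.8-fold), Cd4 and Spi1, none of them by a listed start, while the pan-leukocyte gene Ptprc was 38.4 kb from a peak. Adipocyte markers were marked at 3 of 10 (Pparg, Lpl, Cebpa) and neuronal markers at 5 of 15 (Tubb3, Snap25, Syt1, Map2, Slc17a7). Skeletal muscle markers were marked at 1 of 13, the calcium channel gene Ryr1 by a 0.692 kb peak of 6.23-fold, and hepatocyte markers at 1 of 15, Apoa2. None of 17 germ cell markers was marked.

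Gene classes fell far to either side of the share over all genes. For 22 of 57 classes the 95% interval lay above 58.6%, for 23 below it, and for 12 it held that value. With peaks above the median fold only, 19 classes lay above the share of all genes and 30 below.

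**Figure D2:**
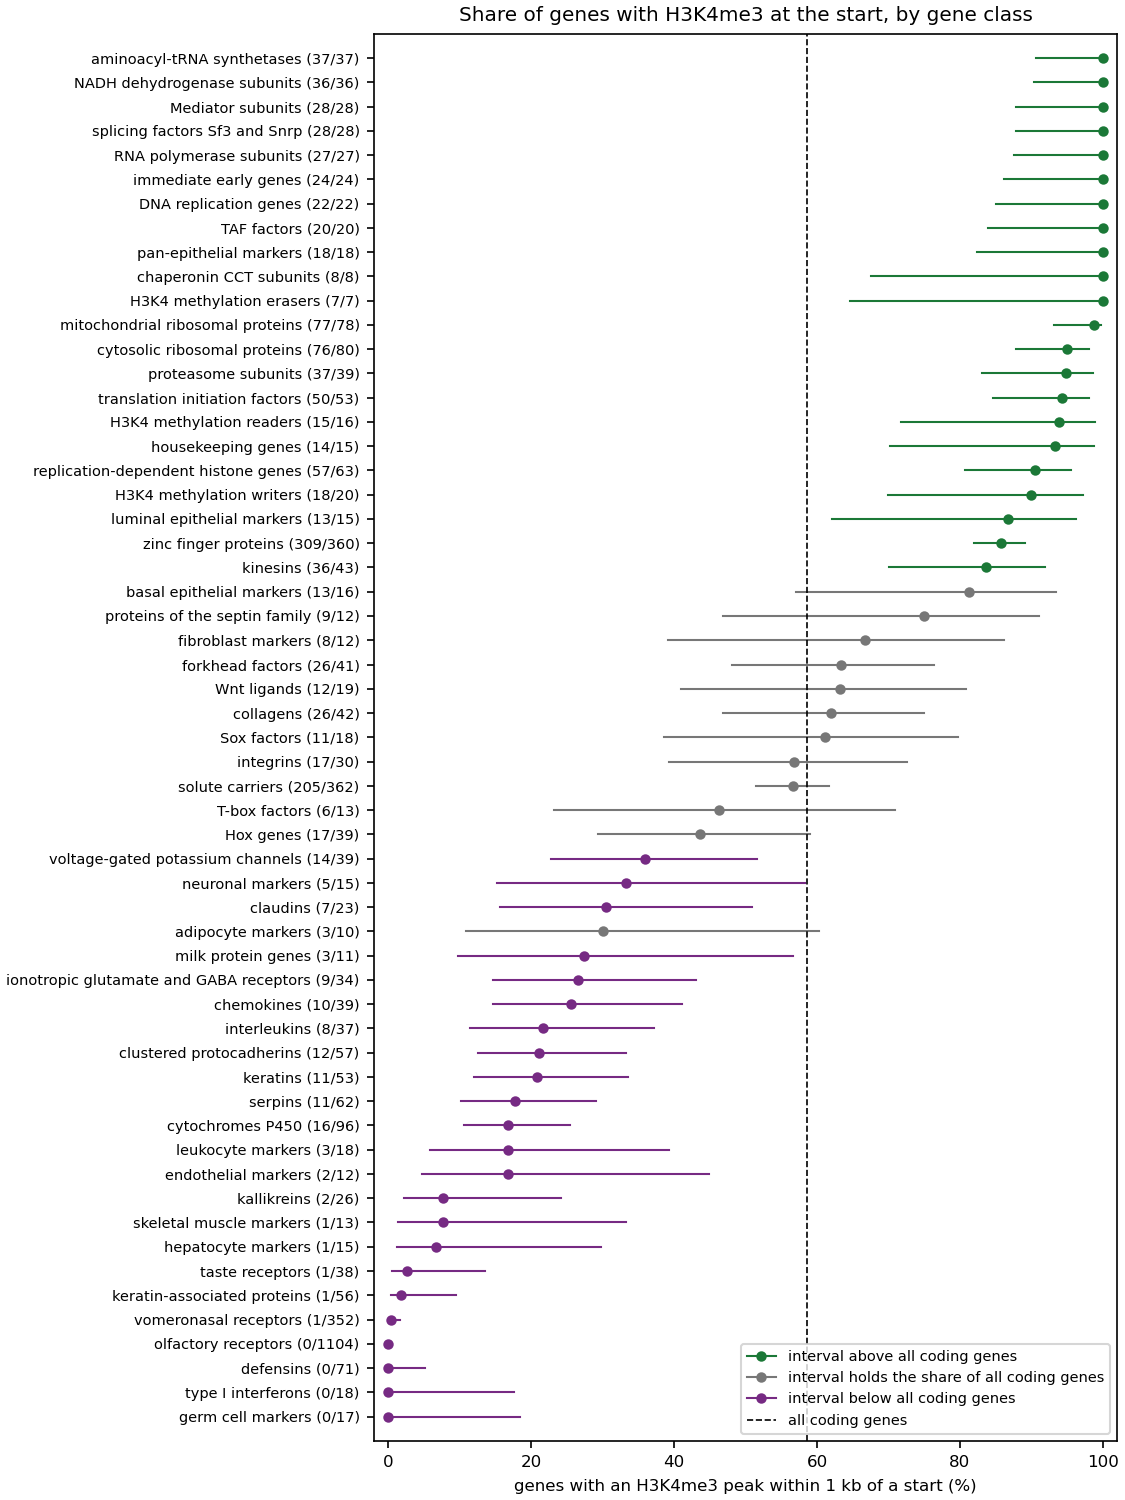
Share of genes with an H3K4me3 peak within 1 kb of a start (in %), for 57 gene classes, with marked and total genes in brackets. Points are shares, bars are Wilson 95% intervals, and the dashed line is the share over all coding genes, 58.6%. Subunits of the basic cell machinery sit at the top and sensory receptors at the bottom.

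The machinery of transcription and translation was marked almost throughout. Every gene was marked among 37 aminoacyl-tRNA synthetases, 36 subunits of NADH dehydrogenase, 28 Mediator subunits, 28 genes of the Sf3 and Snrp splicing factors, 27 RNA polymerase subunits, 22 DNA replication genes, 20 TAF factors and 8 subunits of the chaperonin CCT. Cytosolic ribosomal proteins were marked at 76 of 80 genes and mitochondrial ones at 77 of 78. The 4 unmarked cytosolic genes were Rpl3l, Rpl10l, Rpl39l and Rpl32l, which include the muscle form of Rpl3 and the testis form of Rpl10. They lay 3.04 to 1111 kb from a peak. The mitochondrial exception, Mrpl4, has no listed start, and a 1.63 kb peak of 31.4-fold lay inside it, 1.09 kb from a gene end. Of 39 proteasome genes the 2 unmarked were Psmb11, the subunit of thymic cortical cells, and Psma8, the subunit of the spermatogenic proteasome. Translation initiation factors were marked at 50 of 53, the exceptions being Eif4e3, Eif4a3l1 and Eif4ebp3. Housekeeping genes were marked at 14 of 15, and the exception, Ywhaz, has no listed start and held a 4.71 kb peak of 26.3-fold. All 24 immediate early genes, which respond to growth factors within minutes, were marked.

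These classes differed in the shape of the mark. Over all marked coding genes the median width was 2259 bp and the median fold 20.3. Among 46 classes with at least 3 marked genes, 23 had a wider median and 18 a higher fold. Mitochondrial ribosomal proteins had narrow and strong peaks (1991 bp, 34.4-fold), while cytosolic ones had wider ones of like fold (3164 bp, 37.8-fold). The narrowest peaks of the cytosolic class lay at Rpl27 (1.94 kb) and Rps27l (2.17 kb). CCT subunits had the highest median fold, 41.2, at 3392 bp, with Cct7 (4.43 kb, 43.7-fold) and Cct5 (4.00 kb, 55.1-fold) widest and Cct2 (2.25 kb) and Cct8 (2.92 kb) narrowest. Proteasome genes had medians of 2304 bp and 33.9-fold. Immediate early genes had wide peaks of middling fold (4388 bp, 18.1-fold), with Fosl2 (8.93 kb, 27.5-fold) and Ccn1 (7.84 kb, 17.7-fold) widest and Klf2 (1.95 kb) and Btg2 (2.02 kb) narrowest. Housekeeping genes were as wide (4408 bp) at a higher fold (28).

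**Figure D3:**
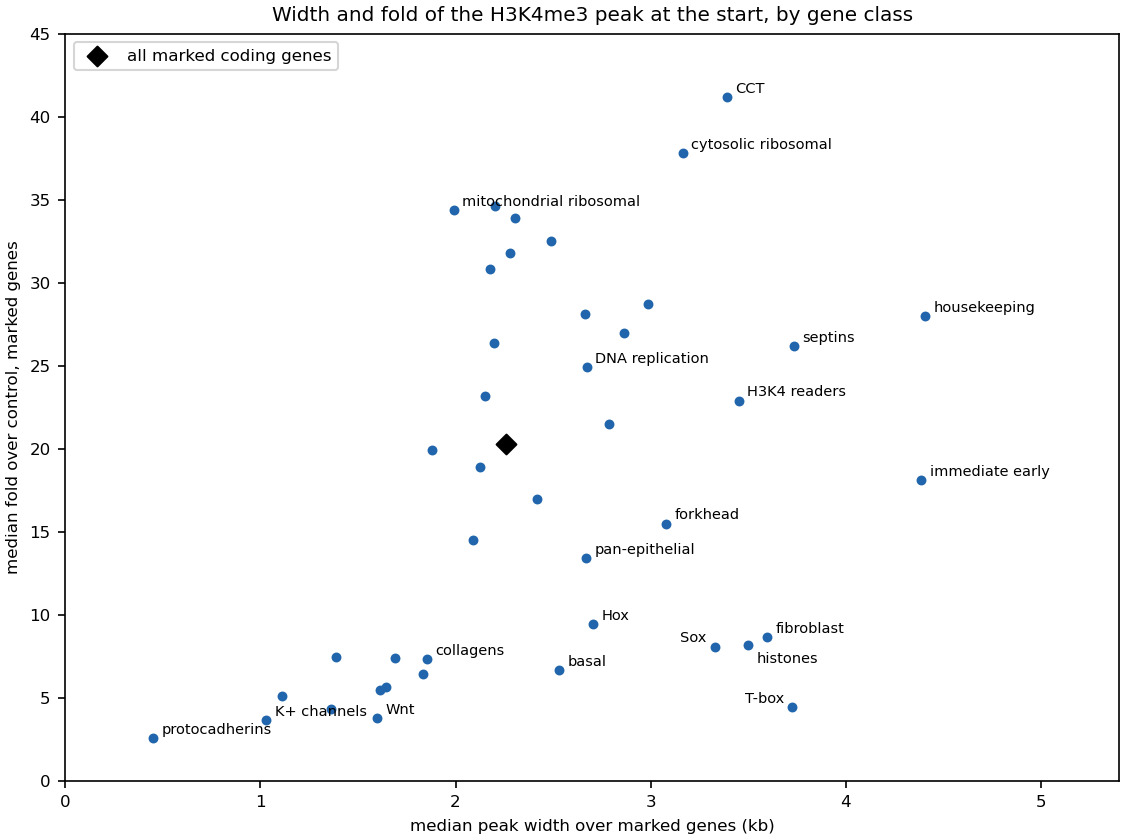
Median width (kb) against median fold over control of the peak at the start, for each class with at least 6 marked genes, selected classes named. The diamond is the median over all marked coding genes (2259 bp, 20.3-fold). Ribosomal and CCT genes lie at high fold, immediate early and housekeeping genes at large width, and histone, Sox and T-box genes at large width with low fold.

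Replication-dependent histone genes had a wide and weak mark, a shape also found in Sox and T-box factors and fibroblast markers. They were marked at 57 of 63 genes, with a median width of 3500 bp but a median fold of 8.20. With peaks above the median fold of the list, 13.3, only 9 of 63 (14.3%) stayed marked, which turned the class from above to below all genes. The widest peak, 7.86 kb and 11.7-fold, held the starts of H4c8, H2ac10 and H3c8, and a 7.27 kb peak of 8.20-fold on chromosome 13 held 5 histone genes (H2ac7, H2ac8, H2bc7, H2bc8 and H3c4). Of the 6 unmarked genes, H2bc23, H2ac23, H2ac24 and H1f6 lay 1.26 to 1.83 kb from a peak, while the testis-specific pair H2bc1 and H2ac1 lay 169.2 and 169.5 kb away. These genes are near copies of each other, and the treatment of reads matching several places is not known from the labels, so the fold at single histone genes is uncertain.

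Zinc finger protein genes, the largest family of transcription factors, were marked at 309 of 360 (85.8%, 81.9 to 89.1), with peaks slightly narrower than usual (1879 bp, 19.9-fold). Zfp503 (14.1 kb) and Zfp516 (8.87 kb) had the widest, and Zfp345 (0.206 kb) and Zfp773 (0.360 kb) the narrowest. Kinesins, the motors that walk on microtubules, were marked at 36 of 43. Kif5b (4.58 kb) and Kif26b (4.22 kb) had the widest peaks, while Kif5c (0.996 kb) and Kif19a (0.802 kb) had the narrowest, and both also had H3K27me3 and no H3K27ac. Solute carriers were close to the average, at 205 of 362, from Slc35e4 (6.06 kb) and the amino acid transporter subunit gene Slc3a2 (5.45 kb) to Slc26a10 and Slc17a7 (0.236 and 0.235 kb). Septins were marked at 9 of 12, all but Septin3, Septin12 and Septin14.

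Families that encode receptors, channels and secreted proteins of particular tissues were mostly unmarked. None of 1104 olfactory receptor genes was marked (0 to 0.347%). Of 352 vomeronasal receptor genes only Vmn2r29 was marked (1.43 kb, 7.46-fold), of 38 taste receptor genes only Tas1r1 and of 56 keratin-associated protein genes only Krtap1-5. The last 2 peaks began 504 and 561 bp from the start. No mark was found at 71 defensin genes (0 to 5.13%) or 18 type I interferon genes (0 to 17.6%). Keratins, the filaments of epithelia, were marked at 11 of 53, the widest at Krt222 (3.21 kb) and Krt14 (3.13 kb) and the narrowest at Krt18 (1.26 kb) and Krt86 (0.230 kb). Krt222 and Krt86 have no listed start, and the peak counted for Krt222 lay outside the gene, 984 bp from its end. Cytochromes P450 were marked at 16 of 96, with Cyp1b1 widest at 5.44 kb and Cyp39a1 next at 2.43 kb, serpins at 11 of 62, with the collagen chaperone gene Serpinh1 widest at 4.99 kb, and kallikreins at 2 of 26, Klk10 and Klk8. Interleukins were marked at 8 of 37, the widest at Il7 (2.57 kb) and Il15 (2.36 kb), chemokines at 10 of 39, the widest at Ccl25 (3.66 kb) and Cxcl12 (3.64 kb), and claudins, which seal tight junctions, at 7 of 23, the widest at Cldn12 (2.85 kb) and Cldn3 (2.54 kb). Voltage-gated potassium channels were marked at 14 of 39 with weak peaks (medians 1030 bp and 3.68-fold). Of these 39 channels, 35 (89.7%) had H3K27me3, against 28.4% of all coding genes, and 2 had H3K27ac. Glutamate and GABA receptor channels were marked at 9 of 34 (medians 1111 bp and 5.13-fold), and 24 (70.6%) had H3K27me3. Clustered protocadherins, which lie on chromosome 18 and could only be called by gene ends, were marked at 12 of 57, at a median of 448 bp and 2.55-fold. The widest there was at Pcdhgc3 (4.86 kb, 19.7-fold).

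The intervals of several families of developmental regulators held the share of all genes, and their peaks varied widely. Forkhead factors were marked at 26 of 41, from Foxp1 (10.0 kb) and Foxc1 (6.91 kb, 24.7-fold) to Foxb2 (1.06 kb, 1.93-fold) and Foxl2 (0.815 kb, 2.45-fold). Sox factors were marked at 11 of 18, from Sox9 (8.27 kb, 32.4-fold) and Sox2 (6.02 kb, 10.5-fold) to Sox15 (1.32 kb) and Sox7 (0.743 kb). Of 13 T-box factors 6 were marked: the mammary regulator Tbx3 (6.93 kb, 28.2-fold), Tbx20 (6.34 kb, 3.79-fold), Tbx18 (5.05 kb, 13.4-fold), Eomes (2.40 kb), Tbx15 (1.27 kb) and Tbx2 (0.294 kb, 2.21-fold). All of these but Tbx3 also had H3K27me3, and 11 of the 13 factors (84.6%) did, against 28.4% of all coding genes. Tbx3, Tbx15 and Tbx2 have no listed start and were called by a gene end. The Tbx2 peak lay at the end with the higher coordinate, which need not be its start. Of the 9 T-box factors with a listed start 3 were marked (33.3%). Wnt ligands were marked at 12 of 19 with a median fold of 3.79, the widest at Wnt5a (9.39 kb, 12.1-fold) and Wnt10a (3.9 kb, 6.67-fold), and 17 of the 19 (89.5%) had H3K27me3. Collagens were marked at 26 of 42 with Col1a2 widest, and integrins at 17 of 30 with Itga3 (7.33 kb) widest.

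The Hox clusters differed from each other. Over all 39 Hox genes 17 were marked (43.6%), through 15 distinct peaks, where 58.6% of all coding genes were marked. Of the 22 Hox genes with a listed start 7 were marked (31.8%). The rest were called by either gene end, which can take in the peak of a close neighbour. H3K4me3 was found at 8 of 10 Hoxb genes on chromosome 11, at widths of 0.779 to 6.82 kb, at 6 of 11 Hoxa genes on chromosome 6 and at 3 of 9 Hoxc genes on chromosome 15 (1.13 to 2.22 kb). None of the 9 Hoxd genes on chromosome 2 was marked, and each lay at least 62.2 kb from a peak. H3K27me3 was listed at all 9 Hoxd and all 9 Hoxc genes, at 9 of 11 Hoxa genes and at 7 of 10 Hoxb genes. Together these were 34 of 39 (87.2%), against 28.4% of all coding genes.

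The genes listed as writers, erasers and readers of H3K4 methylation were themselves mostly marked, where 58.6% of all coding genes were. Writers of the SET1 and MLL complexes and other H3K4 methyltransferases were marked at 18 of 20 genes, with medians of 2866 bp and 27-fold. Among them were the enzyme genes Setd1b (10.0 kb, 13.1-fold), Kmt2d (4.70 kb, 33.5-fold), Kmt2a (4.21 kb, 26.3-fold) and Kmt2c (3.92 kb, 30.7-fold), and the core subunit genes Wdr5 (2.71 kb, 28.6-fold) and Dpy30 (2.15 kb, 23.4-fold). The unmarked writers were the core subunit gene Ash2l, which has no listed start and held a 2.42 kb peak of 29.5-fold, and Ncoa6, whose listed start lay 31.5 kb from a peak but which held a 2.33 kb peak of 14.2-fold. All 7 genes listed as erasers were marked, among them Kdm5a (3.43 kb, 37.5-fold) and Kdm1a (2.09 kb, 21.5-fold). Readers were marked at 15 of 16 genes, including Taf3 (2.68 kb, 60.2-fold) and Brpf1 (3.27 kb, 58.6-fold). The exception was Rag2, the lymphocyte recombinase subunit that binds H3K4me3, with a 1.58 kb peak of 14.2-fold inside the gene.

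Noncoding genes were marked less often than coding genes (58.6%), apart from those of transfer RNA. Noncoding genes without a listed start were called by either end of the listed gene. For a microRNA or other small RNA that end need not be where transcription begins, so these shares do not describe their promoters. Of 12408 long noncoding RNA genes 2223 (17.9%, 17.3 to 18.6) were marked. That was 1604 of 2880 (55.7%) for those within 5 kb of a coding start or, where none is listed, of a coding gene's end, and 619 of 9528 (6.5%) for those farther away. Transfer RNA genes were marked at 255 of 391 (65.2%, 60.4 to 69.8), through 148 distinct peaks. Of the 314 that lay over 5 kb from a coding start, 185 (58.9%, 53.4 to 64.2) were still marked, with a median peak of 2348 bp and 14.9-fold. The share differed between clusters: on chromosome 13 it was 90 of 105 and on chromosome 6 only 3 of 53. Only 1 of the 148 peaks also served a histone gene, so the 2 gene sets of chromosome 13 have separate peaks. Transfer RNA genes are transcribed by RNA polymerase III and lie in near-identical copies, so which copy a read came from is uncertain. MicroRNA genes were marked at 187 of 1136 (16.5%), 5.86% of those away from coding starts. Small nucleolar RNA genes, most of which lie in introns, were marked at 159 of 1286 (12.4%) and 2.89% of the distant ones. Pseudogenes were marked at 181 of 8884 (2.04%), and 0 of 394 immunoglobulin and T cell receptor V segments (0 to 0.966%) was marked.

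Neighbouring genes with starts facing away from each other shared a peak almost without exception. Coding genes on opposite strands with any listed starts 1 bp to 1 kb apart, facing away from each other without overlap, formed 727 head-to-head pairs. Pairs whose listed starts all overlap, such as Surf1 and Surf2, are not among them. In 703 of the 727 (96.7%, 95.1 to 97.8) both starts lay within 1 kb of the same peak, in 0 pairs did each start have a peak of its own, in 1 pair (Gng3 and Bscl2) only 1 start had a peak, and in 23 neither had. Because the window is as wide as the largest distance between the starts, a shared peak is likely by construction once either is marked. Requiring both starts inside the same peak gave 678 of 727 (93.3%, 91.2 to 94.9), with 18 pairs that had only 1 start inside. The other side of this is the share marked at all: 1402 of 1443 genes in such pairs (97.2%, 96.2 to 97.9) were marked, and 8358 of 15014 genes in none (55.7%, 54.9 to 56.5). A peak at 1 start of a pair can mark both genes, which can add to this difference. Of all marked genes with a listed start, 1395 (14.3%) lay in a pair sharing a peak.

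Sharing ended within a few kilobases. The share of pairs at the same peak was 96.7% at distances up to 100 bp (245 pairs), 96.8% from there to 300 bp (308) and 96.6% to 1000 bp (174), then 66.0% to 2000 bp (100 pairs), 7.46% to 5000 bp (201) and 0 of 388 to 10000 bp. In the 2 last groups separate peaks were found at 44.8% and 46.1% of pairs. A peak counts as shared when it comes within 1 kb of both starts, so the fall with distance depends on peak width. Of all peaks 2.58% were 5 kb or wider. Starts on the same strand at most 1 kb apart were rarer, 41 pairs, of which 33 were at the same peak and 8 at none.

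A shared peak was wider and stronger than a peak with a single gene. The 693 peaks of head-to-head pairs had a median width of 2861 bp and a median fold of 29.5, and the 8221 peaks with a single coding gene had 2081 bp and 18.8-fold. H3K27ac overlapped 97.4% and 84.9% of them. In 653 pairs with both starts inside the peak and no other gene at it, the peak reached a median of 1309 bp into the minus-strand gene and 1332 bp into the plus-strand gene, and the starts were a median of 141 bp apart. Both medians lay nearer to the downstream reach at a lone gene, 1418 bp, than to its upstream reach, 641 bp. How evenly a single peak divides between its genes was not measured. Peaks with 3 or more coding genes numbered 18, among them 1 at Ndufb10, Rps2 and Rnf151 (6.42 kb, 37.9-fold) and 1 at Rps18, Vps52 and B3galt4 (5.88 kb, 39.1-fold).

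**Figure D4:**
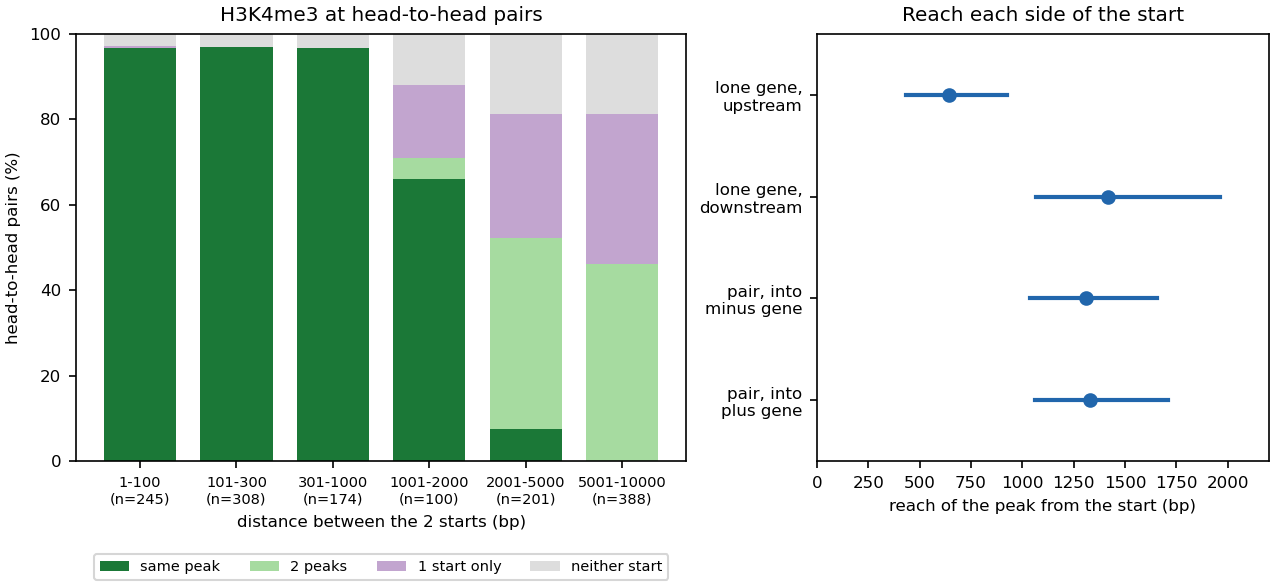
Left, head-to-head pairs of coding genes by the distance between their starts (bp), with the share (in %) whose starts were at the same peak, at 2 peaks, at a peak for 1 start only, or at none. Right, reach of the peak from the start (bp; points are medians, bars run between quartiles) for genes alone at a peak and for both genes of a pair. The shared peak gives way to separate peaks beyond 2000 bp, and a lone gene's peak reaches farther downstream (1418 bp) than upstream (641 bp).

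Pairs known from textbooks showed the same picture. Of 15 such pairs 13 had a common peak. Among these were the chaperonin genes Hspd1 and Hspe1 (6.19 kb, 33.9-fold), the purine synthesis genes Ppat and Paics (4.15 kb, 35.5-fold), Surf1 and Surf2 (3.08 kb), the basement membrane collagen genes Col4a1 and Col4a2 (3.45 kb, 31.3-fold) and Col4a3 and Col4a4 (0.709 kb, 3.50-fold), Atm and Npat (3.50 kb, 31.6-fold), Trp53 and Wrap53 (5.18 kb, 36.6-fold), Sirt3 and Psmd13, whose promoter is shown above (2.49 kb, 32.2-fold), Ska2 and Prr11 (4.42 kb), the antigen processing genes Tap1 and Psmb9 (2.62 kb, 33.6-fold), Brca1 and Nbr1 (3.62 kb, 27.9-fold), and Mrps12 and Sars2 (2.29 kb, 28.1-fold). The kidney collagen pair Col4a3 and Col4a4 was the weakest by fold. The 2 without a common peak were Cdc34 and Tpgs1, which are listed on the same strand, and Polr2e and Gpx4, whose starts are listed 7507 bp apart.

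The pairs with the widest shared peaks were Brd2 and H2-DMa (10452 bp), the RNA-binding protein gene Hnrnpa2b1 with the heterochromatin protein gene Cbx3 (8365 bp), Thap2 and Zfc3h1 (7636 bp), the histone pairs H2ac8 with H2bc8 and H2bc7 with H2ac7 (both in 1 peak of 7272 bp), Cbx5 and Hnrnpa1 (7005 bp), which are paralogs of the second pair, Cks1b and Shc1 (6495 bp), Tln1 and Creb3 (6491 bp), Ddx5 and Cep95 (6322 bp) and Atf5 and Il4i1b (6198 bp). The strongest were Rpl9 and Lias (67.8-fold), Mau2 and Sugp1 (63.9), Psme3ip1 and Rspry1 (60.6), Gga3 and the mitochondrial ribosomal gene Mrps7 (59.9), Mrpl47 and Ndufb5 (59.0), both of mitochondrial proteins, Cog8 and Nip7 (58.2), Pigf and Cript (57.4), the lysyl-tRNA synthetase gene Kars with the telomere gene Terf2ip (55.9), Cct5 and Atpsckmt (55.1), and Tada3 and Arpc4 (54.8). Among the 23 pairs without a mark at either start were the sterol transporter genes Abcg5 and Abcg8 of liver and gut, the meiotic cohesin gene Smc1b with Ribc2, the testis kinase gene Tssk3 with Fam229a, Bhmt2 and Dmgdh, the cytokine gene Il11 with Tmem190, and the testis histone pair H2bc1 and H2ac1. Coding genes head to head with a long noncoding RNA gene shared a peak in 614 of 803 pairs (76.5%, 73.4 to 79.3). Of other long noncoding RNA genes with a listed start, 1092 of 8489 (12.9%) were marked.

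Marked starts were rich in CpG and unmarked starts poor in it. The median ratio of observed to expected CpG in the 300 bases was 0.78 (quartiles 0.61 and 0.92) at 11685 starts with H3K4me3 and 0.21 (0.11 and 0.37) at 8393 without. The share of marked starts was 7.32% (6.58 to 8.14) below a ratio of 0.2, then 25.6%, 62.5%, 86.1% and 93.2% in steps of 0.2, and 95.2% (94.1 to 96.1) at 1 or more. The median width was 1706 bp in the lowest step, 1641 bp in the next and 2802 bp in the highest, and the median fold went from 8.63 to 23.1. H3K27ac went up from 13.5% to 88.9% of starts, while H3K27me3 went down from 34.1% to 10.6%. By class the median ratio was 0.87 for cytosolic ribosomal proteins, 0.63 for zinc finger proteins, 0.28 for keratins and 0.11 for olfactory receptors.

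**Figure D5:**
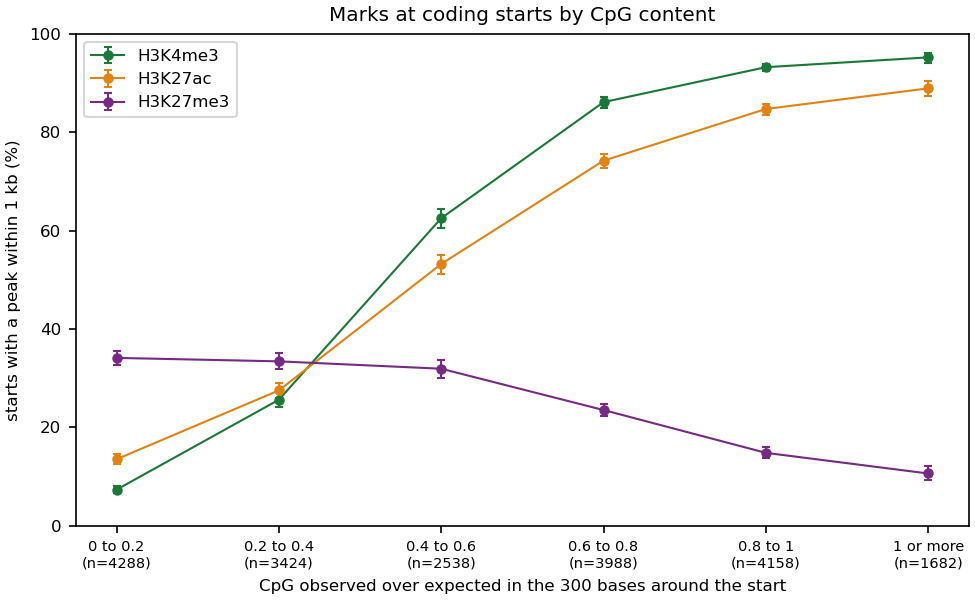
Share of coding starts (in %) with a peak of H3K4me3, H3K27ac or H3K27me3 within 1 kb, by the ratio of observed to expected CpG in the 300 bases around the start, with the number of starts in each step. Points are shares and bars Wilson 95% intervals. H3K4me3 goes from 7.32% to 95.2% of starts and H3K27me3 from 34.1% to 10.6%.

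The starts that went against this pattern differed in their other marks. A ratio of 0.8 or more without H3K4me3 was found at 365 starts of 332 genes, and 291 of these starts (79.7%, 75.3 to 83.5) had H3K27me3, against 504 of 5475 (9.21%) among marked starts of the same ratio. Examples, chosen after their values were seen, are the neural regulators Neurog1, Olig2, Neurod1, Pax6 and Sox1, and Six2, shown above. A ratio under 0.2 with H3K4me3 was found at 314 starts of 285 genes, and 269 of these (85.7%, 81.4 to 89.1) had H3K27ac, against 7.80% of unmarked starts of that ratio. Among them, also chosen after their values were seen, were Col3a1, Lamb3, Krt79, the protease inhibitor gene Slpi and Sfn, the 14-3-3 protein of epithelia. Classes could also differ at a like CpG content: germ cell markers, at a median ratio of 0.54, had 0 of 15 starts marked, and pan-epithelial markers, at 0.59, had all 14.

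The excess of marked starts in head-to-head pairs was found in each range of CpG ratio compared. At a ratio of 0.8 or more 893 of 904 starts in pairs (98.8%, 97.8 to 99.3) and 4582 of 4936 other starts (92.8%, 92.1 to 93.5) were marked. Between 0.4 and 0.8 the shares were 96.9% (94.9 to 98.1) and 75.3% (74.2 to 76.4), and below 0.4 they were 64.4% (51.7 to 75.4, of 59 starts) and 15.1% (14.3 to 15.9). Within a range the ratios were not matched. Their medians in pairs and elsewhere were 0.95 and 0.93 in the highest range, 0.70 and 0.64 in the middle one and 0.24 and 0.18 in the lowest. A peak at 1 start of a pair can also mark both. How much of the excess these account for was not tested. Among marked starts with a ratio of 0.8 or more, the median fold was 30.4 in pairs and 21.2 elsewhere.

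Motifs were searched as exact letters on both strands of the 300 bases, and a match is a description, not a binding site. The GC box GGGCGG was present in 68.0% of marked and 17.9% of unmarked starts (47.0% of all), and the ETS motif CCGGAAG in 18.6% and 2.58% (11.9% of all). The YY1 motif AAGATGGCG was found in 3.01% and 0.191% (1.83% of all), and 352 of the 368 starts that hold it were marked (95.7%, 93.1 to 97.3). The NRF1 motif GCATGCGC was in 5.47% and 0.881% (3.55% of all) and the cyclic AMP response element TGACGTCA in 3.35% and 0.834% (2.30% of all). These 5 hold a CpG, so their shares also follow CpG content. At a ratio of 0.8 or more there were 5475 marked and 365 unmarked starts, so small shares of the unmarked ones rest on few starts. At a ratio of 0.8 or more the GC box was in 78.0% of marked and 71.2% of unmarked starts, the ETS motif in 23.1% and 4.66%, the YY1 motif in 4.05% and 0.274%, the NRF1 motif in 7.56% and 4.66%, and the cyclic AMP response element in 4.42% and 1.37%. TATAAA went the other way, with 6.20% and 21.8% (12.7% of all), and so did the AP-1 motif TGANTCA, with 4.59% and 10.5% (7.06% of all). At a ratio of 0.8 or more this difference was much smaller for TATAAA, 4.91% and 6.3%. For the AP-1 motif the shares there were 2.79% and 2.47%, too close on so few unmarked starts to give a direction. The CCAAT box was in 37.9% and 38.4% of starts (38.1% of all), and in 35% and 26.8% at a ratio of 0.8 or more. The E-boxes CACCTG and CAGCTG, of the kind that E proteins such as HEB bind, were in 17.8% and 23.1% (20% of all) and in 14.3% and 17.5% (15.6% of all), and at a ratio of 0.8 or more in 14.6% and 18.4% and in 11% and 12.3%. Among marked starts, the ETS motif was in 30.9% (28.5 to 33.4) of 1398 starts in head-to-head pairs and in 16.9% (16.2 to 17.6) of 10289 others, and the YY1 motif in 5.79% (4.69 to 7.14) and 2.63% (2.34 to 2.96). Starts of a pair lie close together, so their 300 bases overlap and a match can count for both genes.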

How the data were processed

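Per the labels, libraries were made with a TruSeq ChIP kit from DNA that each antibody had pulled down. For each antibody the authors deposited 1 peak list. The submitters' processing notes give mm10 as the build and name SAMtools, with no version. How reads were aligned, how peaks were called and how the 4 samples of a group were joined is not stated in the labels. Each deposited H3K4me3, H3K27ac or H3K27me3 peak has a fold (ratio) over control, a −log10 p-value, a −log10 q-value and a score. The score is 10 times the −log10 q rounded down, checked on the values, and was not used. The deposited HEB list has positions only.

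Gene positions, starts and promoter sequences came from RefSeq tables of GRCm38.p6, of which 16457 autosomal coding genes had a listed start. Overlaps, medians and Wilson intervals were computed in Python 3.11.15 with pandas 2.3.3 and scipy 1.17.1, and the calls were tested on simulated data. Where several peaks lay at a gene, the widest was described. There was no test and no adjusted p-value, since a list has no values per replicate. The members and gene lists were chosen with earlier results of these data known, and the interferon pattern was narrowed after seeing that it took receptor genes. Named were the 10 widest and 10 strongest peaks, per class all unmarked or marked genes where at most 6, otherwise the 2 widest and 2 narrowest or some of these, textbook pairs, and the 10 widest and 10 strongest pairs. Other genes named, such as single cell type markers, Hox genes, writers and unmarked pairs, were chosen after their values were seen. Alternatives changed the window, the peak threshold, the genes, the peak described and the distance between paired starts. A few genes that these rules name are not reported here.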

Additional observations from a re-analysis of the deposited data

Results flagged for a closer look

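The H3K4me3 list also holds peaks outside the autosomes that no comparison above used. There were 539 on the X chromosome, with a median width of 1636 bp and a median fold of 8.43, and 11 on the Y chromosome, with medians of 840 bp and 3.28-fold. Unplaced scaffolds held 50, with medians of 1444 bp and 1.69-fold. They are named here because they are signal in data outside the main measurement.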

How the results depend on the processing

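The share of marked genes, 59.3%, was 60.3% with a window of 2500 bp, 56.4% with the start inside a peak, 58.1% with a −log10 q of 5 or more, 43.8% with peaks above the median fold, 62.0% without genes named only by Gm numbers or Rik names and 57.8% with X and Y. With 2 alternatives chosen after seeing the data it was 58.2% (most upstream start) and 57.6% (gene ends). Shared pairs, 96.7%, were 93.0% up to 2 kb apart, 93.3% with both starts inside the peak and 89.1% above the median fold. Peaks at coding starts, 55.1%, were 56.4% with 2500 bp and 61.2% with q of 5 or more, and peaks between genes, 10.9%, were 9.91% and 7.90%. With q of 5 or more, median widths and folds were 2202 bp and 19.9 at coding starts, 965 bp and 4.17 inside genes and 707 bp and 3.59 between genes, fewer and stronger peaks by construction. The CpG ratio of unmarked starts was 0.22 without Gm and Rik genes. The numbers of classes above and below all genes moved by less than 1.5 times throughout, and 1 class reversed, histone genes, at 14.3% above the median fold. With that threshold 29 other class shares left their interval, and 2 to 7 with the other settings. No paired analysis was possible because the list carries no columns per replicate. Read depth is unknown and limits what weak peaks can show.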
